A study of Mus musculus with 6 samples.

Results

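The expression of 52 genes for mitotic kinases and cyclins, the spindle checkpoint, the kinetochore, mitotic kinesins, the spindle, cytokinesis and mitotic chromosome structure was examined in C3H10T1/2 cells. The genes were taken by mouse symbol from a list of mitosis genes. Each matched 1 Ensembl gene among the 55401 genes of the count table. A dividing cell makes most of these transcripts in G2 and M phase, when CDK1 bound to cyclin B starts mitosis, kinetochores attach chromosomes to spindle microtubules, and the checkpoint holds the anaphase-promoting complex back until every chromosome is attached. Separase then opens the cohesin rings, kinesins move the chromosomes and poles apart, and the contractile ring divides the cell. Cells that leave the cycle make little of these transcripts.

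C3H10T1/2 cells are mesenchymal cells of the mouse, with the capacity to become bone, cartilage or fat cells. The libraries came from 3 lines derived from them, with a control short hairpin RNA (shControl), with a hairpin against Nfib (shNFIB) and with a hairpin against MLL1, the product of Kmt2a (shMLL1), each at day 0 and at day 7. The day 0 cells were taken at confluence, and the day 7 cells had been kept in osteogenic medium, which held 0.1 µM dexamethasone, 20 mM β-glycerophosphate and, at 100 µg/ml, ascorbic acid 2-phosphate. No library was from day 7 without this medium, so the time after confluence and the medium cannot be told apart. Each of the 6 conditions had 1 library, so that a difference between any pair of conditions has no replicate check. How the hairpins were delivered and whether a line is 1 clone were not given in the sources used here. Total counts were 32662704 in shControl, 34774066 in shNFIB and 30838517 in shMLL1 at day 0, and 29086652, 30406559 and 21608680 at day 7. Levels are given as CPM, with library sizes scaled by TMM (trimmed mean of M-values).

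The genes that the hairpins target come before the mitosis genes. Nfib (ENSMUSG00000008575, chromosome 4 from 82290173 to 82705750, minus strand), which encodes a nuclear factor I transcription factor, was at 116 CPM in shControl, 35.3 in shNFIB and 65.5 in shMLL1 at day 0, and at 83.5, 8.15 and 72.7 CPM at day 7. It was lowest in shNFIB at each day, and the log2 difference from shControl was -1.72 (95% interval -1.82 to -1.62) at day 0 and -3.36 (-3.55 to -3.17) at day 7. For a pair of libraries the 2 counts give an exact interval (Clopper-Pearson), and every interval here covers counting error only. Kmt2a (ENSMUSG00000002028, chromosome 9 from 44803355 to 44881296, minus strand), which encodes a histone H3 lysine 4 methyltransferase, was at 74.7 CPM in shControl, 86.5 in shNFIB and 30.9 in shMLL1 at day 0, and at 66.3, 94.1 and 34.8 CPM at day 7. It was lowest in shMLL1 at each day, with log2 differences of -1.27 (-1.38 to -1.16) at day 0 and -0.93 (-1.05 to -0.81) at day 7. At day 0 the shMLL1 library was below shControl for Nfib as well, with a log2 difference of -0.83 (-0.91 to -0.75). Of 10 mesenchymal markers, all had counts in every library, and their summed level was 14729 CPM in shControl, 21816 in shNFIB and 10637 in shMLL1 at day 0, and 9673, 9734 and 10067 CPM at day 7. The most abundant was Col1a2, a fibrillar collagen chain, at 4443 CPM in shControl, 6289 in shNFIB and 2702 in shMLL1 at day 0, and at 1948, 2081 and 2112 CPM at day 7.

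Mitosis genes made up 0.560% (exact Clopper-Pearson 95% interval 0.557 to 0.562) of all counts in shControl at day 0 and 0.0979% (0.0968 to 0.0990) at day 7. The share went from 0.794% (0.791 to 0.797) to 0.0694% (0.0685 to 0.0704) in shNFIB and from 0.592% (0.590 to 0.595) to 0.0782% (0.0770 to 0.0794) in shMLL1. The shares of the 3 libraries of day 7 lay below those of the 3 libraries of day 0. In bulk RNA, fewer cells in mitosis and less of these transcripts per cell cannot be told apart. The median level of the 52 genes was 86.9 CPM in shControl, 133 in shNFIB and 86.1 in shMLL1 at day 0. At day 7 it was 10.5, 7.21 and 7.87 CPM. All 52 genes passed the filter on low counts, and in all 52 every day 7 library was below every day 0 library, which was so for 21.6% of the 15741 genes tested. The lowest day 0 level was between 1.65 times (Bub3) and 13.5 times (Kif11) the highest day 7 level.

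The days were compared by the quasi-likelihood test of edgeR (Benjamini-Hochberg adjustment) over all genes tested, with the line as a block and 2 residual degrees of freedom. The lines serve as the replicates in this test, so that its p-values rest on the spread of the day change between lines. The variance of each gene is moderated towards a trend over all genes tested. The p-values and standard errors therefore do not measure the spread of that gene alone. All 52 genes fell, against 17.3% of all genes tested. Their log2 fold changes ran from -4.40 (Plk1) to -1.0 (Bub3), with standard errors of 0.19 to 0.39 and adjusted p-values of 0.000582 to 0.01. The median was -3.52, beside -0.02 over all genes tested. Between the shControl libraries, 50 of the 52 genes were more than 2-fold lower at day 7, against 14.6% of all genes tested. Between the shNFIB libraries 51 were, against 12.9%, and between the shMLL1 libraries 52 were, against 18.5%. The exceptions were Smc4 and Bub3 in shControl and Bub3 in shNFIB. The median log2 difference was -2.92 (range -3.93 to -0.76) in shControl, -4.07 (-5.43 to -0.83) in shNFIB and -3.44 (-4.47 to -1.21) in shMLL1. As folds, these medians were 7.57, 16.8 and 10.9. Over all genes tested they were -0.04, -0.03 and 0.02 on the log2 scale.

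**Figure D1:**
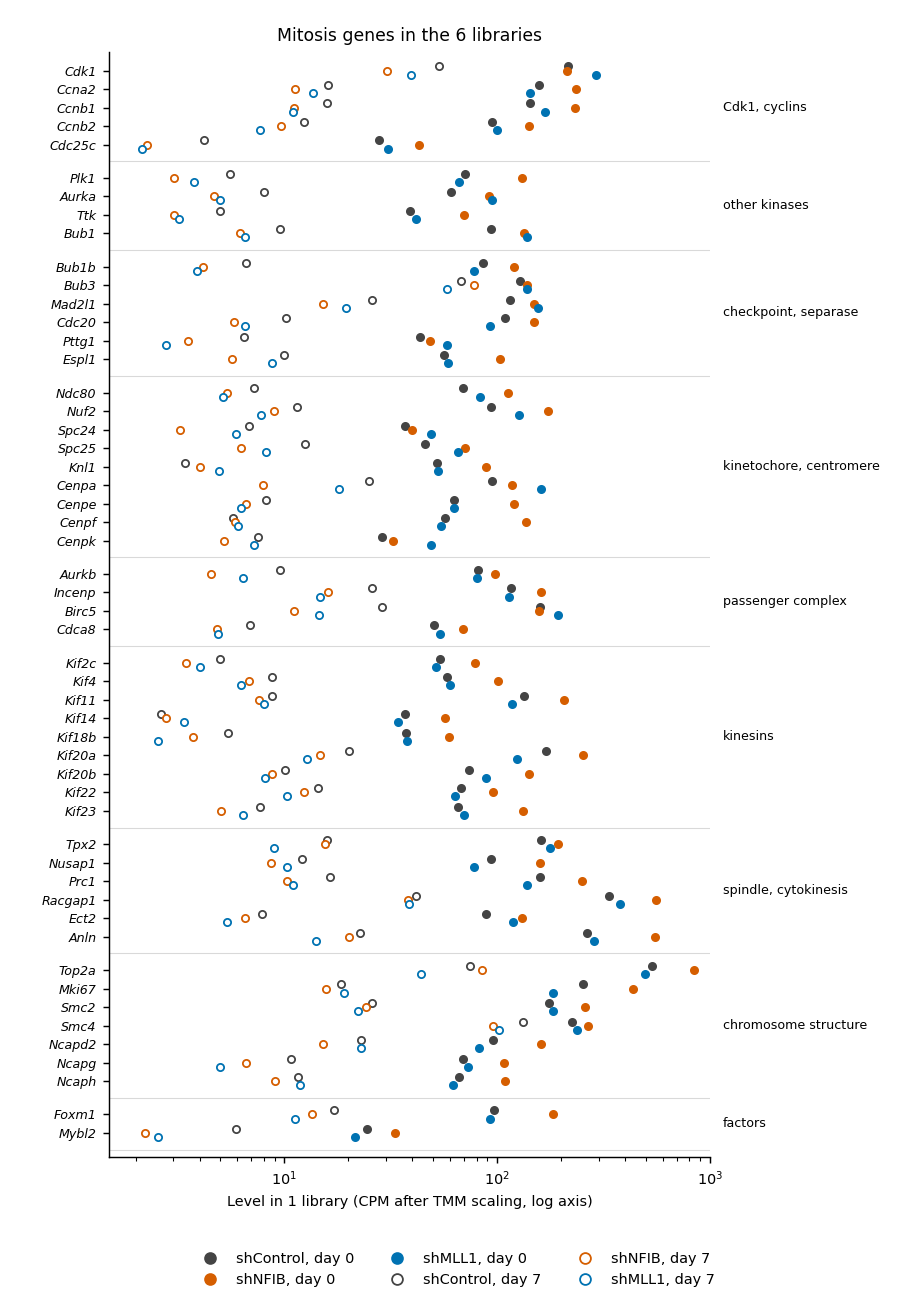
Level of each of the 52 mitosis genes in 1 library per condition (CPM after TMM scaling, log axis), grouped by role, with filled points for day 0, open points for day 7 and colours for shControl, shNFIB and shMLL1. In every gene the 3 open points lie left of the 3 filled points, and the gap is narrowest in Bub3 and Smc4.

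Cdk1 and its cyclins start mitosis. Cdk1 (ENSMUSG00000019942, chromosome 10 from 69335146 to 69352938, minus strand), the kinase that drives entry into mitosis, was at 215 CPM in shControl, 214 in shNFIB and 290.3 in shMLL1 at day 0, and at 53.4, 30.5 and 39.4 CPM at day 7. It was highest in shMLL1 at day 0 and in shControl at day 7, and the days did not overlap. Its log2 fold change over the 3 lines was -2.57 (SE 0.25), with an adjusted p of 0.00113 in the quasi-likelihood test of edgeR (Benjamini-Hochberg adjustment). Ccnb1 (ENSMUSG00000041431, chromosome 13 from 100778650 to 100786570, minus strand), which encodes cyclin B1, the partner of CDK1 in mitosis, was at 143 CPM in shControl, 232 in shNFIB and 168 in shMLL1 at day 0, and at 15.9, 11.1 and 11.02 CPM at day 7. At day 0 it was highest in shNFIB, at day 7 both knockdown libraries were below shControl, and the days were far apart. Its log2 fold change in the same quasi-likelihood test was -3.83 (SE 0.29, adjusted p = 0.000696). Ccna2 (cyclin A2, active from S phase into mitosis), Ccnb2 (cyclin B2) and Cdc25c, which encodes the phosphatase that activates CDK1, fell by log2 fold changes of -3.69, -3.51 and -3.60. Within the lines, the median log2 difference of these 5 genes was -2.94 (shControl), -4.25 (shNFIB) and -3.71 (shMLL1). Cdk1 changed least of the 5 in each line.

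The mitotic kinases Plk1, Aurka, Ttk and Bub1 had a median log2 difference between the days of -3.12 (shControl), -4.50 (shNFIB) and -4.19 (shMLL1). Plk1 (ENSMUSG00000030867, chromosome 7 from 122159439 to 122169873, plus strand), the Polo-like kinase of centrosome maturation and spindle assembly, was at 70.4 CPM in shControl, 130.3 in shNFIB and 66.4 in shMLL1 at day 0, and at 5.54, 3.01 and 3.77 CPM at day 7. The shNFIB library had the highest level at day 0 and the lowest at day 7, and shControl and shMLL1 were close to each other at day 0. Plk1 had the lowest log2 fold change of the 52 genes in edgeR's quasi-likelihood test, -4.40 (SE 0.38, adjusted p = 0.000868), and within shNFIB the log2 difference was -5.43 (95% interval -5.76 to -5.13), or 43.2-fold. Aurka, which encodes the Aurora kinase of the spindle poles, was at 60.4 CPM in shControl, 91.7 in shNFIB and 94.2 in shMLL1 at day 0, and at 8.04, 4.67 and 4.96 CPM at day 7. Here both knockdown libraries were above shControl at day 0 and below it at day 7. Ttk, the kinase that starts checkpoint signalling at kinetochores, and Bub1, which brings checkpoint proteins to the kinetochore, fell by log2 fold changes of -3.73 and -4.04.

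Of the 6 genes of the checkpoint, the activator of the anaphase-promoting complex and separase, 5 fell by log2 fold changes of -4.28 to -2.81, and the other was Bub3. Bub1b (ENSMUSG00000040084, chromosome 2 from 118598211 to 118641591, plus strand), which encodes BUBR1 of the mitotic checkpoint complex, was at 85.7 CPM in shControl, 120.2 in shNFIB and 78.0 in shMLL1 at day 0, and at 6.63, 4.16 and 3.89 CPM at day 7. The order of the lines differed between the days, and each day 7 level was a small fraction of each day 0 level. Its log2 fold change was -4.28 (SE 0.29, adjusted p = 0.000607 in edgeR's quasi-likelihood test). Bub3 (ENSMUSG00000066979, chromosome 7 from 131560222 to 131571895, plus strand), which carries BUB1 and BUBR1 to kinetochores, was at 129 CPM in shControl, 138 in shNFIB and 138 in shMLL1 at day 0, and at 67.6, 77.7 and 57.9 CPM at day 7. The day 0 levels were within a narrow range, the day 7 levels were lower in each line, and the days did not overlap. Bub3 had the highest log2 fold change of the 52 genes, -1.0 in edgeR's quasi-likelihood test (SE 0.19, adjusted p = 0.00931). With the shControl line left out the adjusted p was 0.0654 in that test, and Bub3 was not called, with a log2 fold change of -1.08 from 4 libraries.

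Cdc20, the activator of the anaphase-promoting complex that the checkpoint holds back, was at 108 CPM in shControl, 149.5 in shNFIB and 92.4 in shMLL1 at day 0, and at 10.2, 5.79 and 6.56 CPM at day 7. Its level was highest in shNFIB at day 0 and lowest there at day 7. Espl1, which encodes separase, the protease that cuts cohesin, was at 56.5 CPM in shControl, 104 in shNFIB and 58.7 in shMLL1 at day 0, and at 10.0, 5.68 and 8.73 CPM at day 7. It was highest in shNFIB at day 0 with the other lines close together, and the day 7 levels were lowest in shNFIB. The log2 fold changes over the lines were -3.97 (SE 0.30) for Cdc20 and -3.13 (SE 0.36) for Espl1, with adjusted p-values of 0.000687 and 0.00202 in edgeR's quasi-likelihood test. Pttg1, which encodes securin, the inhibitor of separase, had a log2 fold change of -3.62, and Mad2l1, the checkpoint protein that binds CDC20, of -2.81. Pttg1 was at 43.5 CPM in shControl, 48.3 in shNFIB and 58.2 in shMLL1 at day 0, and at 6.43, 3.52 and 2.79 CPM at day 7. It was lowest in shControl at day 0 and highest there at day 7.

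Kinetochore and centromere genes numbered 9, with a median log2 difference between the days of -2.93 (shControl), -4.17 (shNFIB) and -3.16 (shMLL1). Ndc80, Nuf2, Spc24 and Spc25 encode the subunits of the NDC80 complex, which binds microtubules. Their log2 fold changes in edgeR's quasi-likelihood test were -3.89, -3.79, -3.02 and -2.79, with adjusted p-values of 0.000645, 0.000734, 0.00104 and 0.00233. Nuf2 was at 93.2 CPM in shControl, 174 in shNFIB and 127 in shMLL1 at day 0, and at 11.4, 8.90 and 7.75 CPM at day 7. Spc24 was at 36.8 CPM in shControl, 39.6 in shNFIB and 48.8 in shMLL1 at day 0, and at 6.82, 3.21 and 5.94 CPM at day 7. At day 7 the shNFIB library was lowest for Spc24 and the shMLL1 library for Nuf2, and in each gene the days were apart.

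Cenpa (ENSMUSG00000029177, chromosome 5 from 30666777 to 30674830, plus strand), the histone H3 variant that marks the centromere, was at 94.4 CPM in shControl, 117 in shNFIB and 161 in shMLL1 at day 0, and at 24.9, 7.95 and 18.0 CPM at day 7. At day 0 it was highest in shMLL1, and at day 7 shNFIB was well below the other lines. The log2 day change in shNFIB minus that in shControl was -1.96 (95% interval -2.18 to -1.74), the lowest of the 52 response differences of shNFIB. Knl1, the scaffold on which the checkpoint assembles, was at 51.9 CPM in shControl, 88.3 in shNFIB and 53.0 in shMLL1 at day 0, and at 3.41, 3.99 and 4.92 CPM at day 7. In contrast with most of the other genes, its day 7 level was lowest in shControl. Cenpf, a large coiled-coil protein of the outer kinetochore, was at 56.7 CPM in shControl, 137 in shNFIB and 54.2 in shMLL1 at day 0, and at 5.71, 5.89 and 6.07 CPM at day 7. At day 0 shNFIB stood above the other lines, with a log2 difference from shControl of 1.27 (1.19 to 1.35), and at day 7 the 3 levels were close together. Cenpe, a kinesin motor of the kinetochore, and Cenpk, a subunit of the constitutive centromere network, fell by log2 fold changes of -3.48 and -2.44. Over the lines the log2 fold change was -2.99 for Cenpa, -3.94 for Knl1 and -3.67 for Cenpf, with adjusted p-values of 0.0028, 0.000608 and 0.000921 in edgeR's quasi-likelihood test.

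The chromosomal passenger complex corrects faulty attachments and later acts in cytokinesis. Its genes are Aurkb (the kinase), Incenp (the scaffold), Birc5 (survivin) and Cdca8 (borealin). Aurkb (ENSMUSG00000020897, chromosome 11 from 69045647 to 69051664, plus strand) was at 81.1 CPM in shControl, 97.6 in shNFIB and 80.5 in shMLL1 at day 0, and at 9.51, 4.50 and 6.39 CPM at day 7. Birc5 (ENSMUSG00000017716, chromosome 11 from 117849251 to 117855743, plus strand) was at 159 CPM in shControl, 158 in shNFIB and 193 in shMLL1 at day 0, and at 28.8, 11.1 and 14.5 CPM at day 7. At day 0 Aurkb was highest in shNFIB and Birc5 in shMLL1, and at day 7 both were lowest in shNFIB. In edgeR's quasi-likelihood test the log2 fold changes were -3.72 (SE 0.30, adjusted p = 0.000815) for Aurkb and -3.34 (SE 0.32, adjusted p = 0.00113) for Birc5. Incenp and Cdca8 fell by log2 fold changes of -2.82 and -3.39. Within the lines the median of these genes was -2.67 (shControl), -3.84 (shNFIB) and -3.56 (shMLL1).

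The 9 kinesin genes fell by log2 fold changes of -4.19 (Kif11) to -2.60 (Kif22), with adjusted p-values from 0.000582 to 0.00106 in edgeR's quasi-likelihood test. Kif11 (ENSMUSG00000012443, chromosome 19 from 37376403 to 37421859, plus strand), the motor that pushes the spindle poles apart, was at 133 CPM in shControl, 205 in shNFIB and 118 in shMLL1 at day 0, and at 8.76, 7.61 and 7.99 CPM at day 7. Its day 7 levels were nearly alike, and it had the widest gap of the 52 genes between the lowest day 0 and the highest day 7 level. Kif23 (ENSMUSG00000032254, chromosome 9 from 61915905 to 61946774, minus strand), the motor of the centralspindlin complex of the central spindle, was at 65.7 CPM in shControl, 132 in shNFIB and 69.7 in shMLL1 at day 0, and at 7.68, 5.01 and 6.35 CPM at day 7. The shNFIB library was highest at day 0 and lowest at day 7. Kif20a (ENSMUSG00000003779, chromosome 18 from 34624613 to 34633277, plus strand), which carries the passenger complex to the central spindle, was at 169.5 CPM in shControl, 253 in shNFIB and 124 in shMLL1 at day 0, and at 20.2, 14.7 and 12.7 CPM at day 7. It was lowest in shMLL1 at each day.

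Among the other kinesins, Kif2c, which takes tubulin off microtubule ends, had a log2 fold change of -3.87 and Kif18b, which works at plus ends, of -3.55. It was -3.29 and -2.60 for the chromosome-bound motors Kif4 and Kif22, and -3.84 and -3.44 for Kif14 and Kif20b, motors of cytokinesis. Kif14 was at 36.9 CPM in shControl, 56.7 in shNFIB and 34.2 in shMLL1 at day 0, and at 2.62, 2.77 and 3.36 CPM at day 7. At day 7 its level was lowest in shControl, as for Knl1. Kif18b was at 37.4 CPM in shControl, 59.3 in shNFIB and 37.8 in shMLL1 at day 0, and at 5.45, 3.72 and 2.54 CPM at day 7. It was lowest in shMLL1 at day 7, where its log2 difference from shControl was -1.10 (-1.55 to -0.67). The median log2 difference of the kinesin genes between the days was -3.07 (shControl), -4.11 (shNFIB) and -3.45 (shMLL1).

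Genes of spindle assembly and cytokinesis had a median log2 difference between the days of -3.31 (shControl), -4.27 (shNFIB) and -3.98 (shMLL1). Anln (ENSMUSG00000036777, chromosome 9 from 22332012 to 22389188, minus strand), which encodes anillin, the scaffold of the contractile ring, was at 265 CPM in shControl, 551 in shNFIB and 286 in shMLL1 at day 0, and at 22.6, 20.2 and 14.1 CPM at day 7. At day 0 its level in shNFIB was above that of both other lines, by a log2 difference from shControl of 1.05 (1.02 to 1.09), and at day 7 shMLL1 was lowest. Racgap1 (ENSMUSG00000023015, chromosome 15 from 99620496 to 99651656, minus strand), the partner of Kif23 in centralspindlin, was at 336 CPM in shControl, 560.1 in shNFIB and 378 in shMLL1 at day 0, and at 41.5, 38.0 and 38.5 CPM at day 7. Its day 7 levels were within a narrow range, and shNFIB was highest at day 0. Tpx2, which activates Aurora A on the spindle, was at 161 CPM in shControl, 193 in shNFIB and 177 in shMLL1 at day 0, and at 15.9, 15.6 and 8.97 CPM at day 7. For this gene shMLL1 was lowest at day 7, and shControl and shNFIB were alike. In edgeR's quasi-likelihood test the log2 fold changes were -4.22 for Anln, -3.40 for Racgap1 and -3.75 for Tpx2, with adjusted p-values of 0.000645, 0.000696 and 0.000608. Nusap1 and Prc1, which bundle microtubules, and Ect2, which activates RhoA at the division plane, fell by log2 fold changes of -3.36, -3.84 and -4.09.

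Chromosome structure was covered by 7 genes, with a median log2 difference between the days of -2.69 (shControl), -3.42 (shNFIB) and -3.05 (shMLL1). Top2a (ENSMUSG00000020914, chromosome 11 from 98992943 to 99024189, minus strand), the topoisomerase that untangles sister chromatids, was at 536 CPM in shControl, 842 in shNFIB and 494 in shMLL1 at day 0, and at 74.7, 84.5 and 43.7 CPM at day 7. It had the highest CPM of the 52 genes in every day 0 library, with shNFIB above the other lines, and at day 7 shMLL1 was lowest. Mki67 (ENSMUSG00000031004, chromosome 7 from 135689784 to 135716361, minus strand), which coats mitotic chromosomes and is the usual marker of cycling cells, was at 253 CPM in shControl, 437 in shNFIB and 182 in shMLL1 at day 0, and at 18.5, 15.7 and 19.1 CPM at day 7. At day 0 the lines were spread out with shMLL1 lowest, and at day 7 they were close together. The log2 fold changes in edgeR's quasi-likelihood test were -3.22 (SE 0.25, adjusted p = 0.0007) for Top2a and -3.94 (SE 0.35, adjusted p = 0.000903) for Mki67.

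Smc2 and Smc4 encode the ATPase subunits of condensin, and Ncapd2, Ncapg and Ncaph the other subunits of condensin I. Smc4 (ENSMUSG00000034349, chromosome 3 from 69004738 to 69034623, plus strand) was at 225 CPM in shControl, 268 in shNFIB and 237 in shMLL1 at day 0, and at 132, 95.4 and 102 CPM at day 7. Its days did not overlap, but the distance between them was small, and Smc4 had the highest CPM of the 52 genes in every day 7 library. Its log2 fold change was -1.16 (SE 0.22), with an adjusted p of 0.01 in edgeR's quasi-likelihood test, the highest of the 52 genes. Its partner Smc2 was at 175 CPM in shControl, 258 in shNFIB and 184 in shMLL1 at day 0, and at 25.8, 24.2 and 22.2 CPM at day 7. Unlike Smc4, the day 7 levels of Smc2 were far below its day 0 levels, and the log2 fold change was -3.08. Ncapd2, Ncapg and Ncaph fell by log2 fold changes of -2.43, -3.53 and -2.83. Ncapg was at 69.5 CPM in shControl, 108 in shNFIB and 72.8 in shMLL1 at day 0, and at 10.8, 6.60 and 4.96 CPM at day 7. The day 7 levels of Ncapg were ordered shControl, shNFIB, shMLL1 from high to low.

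Foxm1 and Mybl2 encode transcription factors that act on genes of G2 and mitosis. Foxm1 (ENSMUSG00000001517, chromosome 6 from 128362967 to 128376146, plus strand) was at 97.2 CPM in shControl, 184 in shNFIB and 92.8 in shMLL1 at day 0, and at 17.2, 13.5 and 11.2 CPM at day 7. Mybl2 (ENSMUSG00000017861, chromosome 2 from 163054687 to 163084688, plus strand), or B-MYB, was at 24.5 CPM in shControl, 33.3 in shNFIB and 21.5 in shMLL1 at day 0, and at 5.90, 2.199 and 2.54 CPM at day 7. For Foxm1 shNFIB was highest at day 0, and for Mybl2 the day 7 levels of both knockdown lines were below that of shControl. In edgeR's quasi-likelihood test the log2 fold changes were -3.10 (SE 0.28, adjusted p = 0.000964) and -3.00 (SE 0.39, adjusted p = 0.00279).

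Levels were compared between genes per kilobase of exon. At day 0 the median of the 52 genes was 16.6 CPM per kb in shControl, 25.4 in shNFIB and 18.8 in shMLL1, above the median of all genes tested, which was 4.88, 5.24 and 4.46 CPM per kb. At day 7 the median of the 52 genes was 2.59, 1.47 and 1.80 CPM per kb, below that of all genes tested at 4.63, 4.81 and 4.70. The highest per length in shControl at day 0 were Ccnb2 at 61.8, Top2a at 59.5 and Cdc20 at 58.0 CPM per kb. Kif14 was lowest per length in every library, at 3.56 CPM per kb in shControl at day 0 and 0.253 at day 7. Smc4 was highest per length in every day 7 library, at 25.4 (shControl), 18.3 (shNFIB) and 19.7 (shMLL1) CPM per kb.

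The knockdown lines were compared with shControl at each day. At day 0, 50 of the 52 genes were higher in shNFIB than in shControl, with a median log2 difference of 0.62 (range -0.01 to 1.27), beside 0.09 over all genes tested. Over all genes tested 57.6% were higher. The counting interval lay above 0 in 49 genes, against 37.9% of all genes tested, and held 0 in Cdk1, Spc24 and Birc5. More than 2-fold higher were 3 genes, Cenpf, Anln and Kif23, against 6.76% of all genes tested, and 0 were more than 2-fold lower, against 5.9%. With DESeq2's size factors 2 genes in place of 3 were more than 2-fold higher, and with library size alone 1 was. A share of 3 in 52 is close to that of all genes, and the median carries the difference. At day 7, 47 of the 52 genes were lower in shNFIB than in shControl, against 49.2% of all genes tested, with a median of -0.52 (range -1.65 to 0.23), beside 0.01 over all genes tested. The interval lay below 0 in 41 genes, above 0 in 2, which were Bub3 and Top2a, and held 0 in 9, while over all genes tested it lay below 0 in 32.6% and above 0 in 37.3%. More than 2-fold lower were 6 genes, Cenpa (-1.65), Mybl2 (-1.42), Birc5 (-1.37), Spc24 (-1.09), Aurkb (-1.08) and Spc25 (-1.0 on the log2 scale), against 10.2% of all genes tested, and 0 were more than 2-fold higher, against 7.27%.

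The shMLL1 libraries were compared with the same shControl libraries. At day 0 the median log2 difference was 0.07 (range -0.47 to 0.78), beside -0.05 over all genes tested. With DESeq2's size factors these medians were 0.14 and 0.02. The interval lay above 0 in 23 genes and below 0 in 11, and held 0 in 18, while over all genes tested it lay above 0 in 30.6% and below 0 in 38.1%. The highest were Cenpk (0.78), Cenpa (0.77) and Aurka (0.64), and the lowest were Mki67 (-0.47) and Kif20a (-0.46). No gene was past 2-fold in either direction, against 9.19% of all genes lower and 9.08% higher. At day 7 the median was -0.50 (range -1.22 to 0.53), beside -0.04 over all genes tested, and 46 of the 52 genes were lower in shMLL1, against 53.4% of all genes. The interval lay below 0 in 38 genes and above 0 in 1, Knl1, and held 0 in 13, while over all genes tested it lay below 0 in 34% and above 0 in 27.3%. More than 2-fold lower were 4 genes, Mybl2 (-1.22), Pttg1 (-1.21), Ncapg (-1.12) and Kif18b (-1.10), against 5.49% of all genes tested, and 0 were more than 2-fold higher, against 6.31%.

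The day change of each knockdown line was then set against that of shControl. The log2 difference between days was lower in shNFIB than in shControl for 51 of the 52 genes, against 51.8% of all genes tested, by a median of -1.16 (range -1.96 to 0.10), beside -0.03 over all genes tested. The gene that differed was Bub3, at 0.10 (-0.003 to 0.21), with an interval that held 0. The difference was past 2-fold for 37 genes, against 11.8% of all genes tested, with the lowest values in Cenpa (-1.96), Mybl2 (-1.86), Plk1 (-1.77) and Espl1 (-1.69). Within shMLL1 the day change was lower than in shControl for 44 of the 52 genes, against 48.6% of all genes tested, by a median of -0.59 (range -1.62 to 0.52), beside 0.03 over all genes tested. It was past 2-fold for 11 genes, against 11.1% of all genes tested. The lowest values were those of Pttg1 (-1.62), Aurka (-1.34) and Birc5 (-1.27), and the highest those of Mki67 (0.52), Knl1 (0.50) and Kif14 (0.47). Both knockdown lines were set against the same shControl libraries, so that chance values in those libraries enter both columns of differences, and with 1 library per condition neither difference in response was tested.

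**Figure D2:**
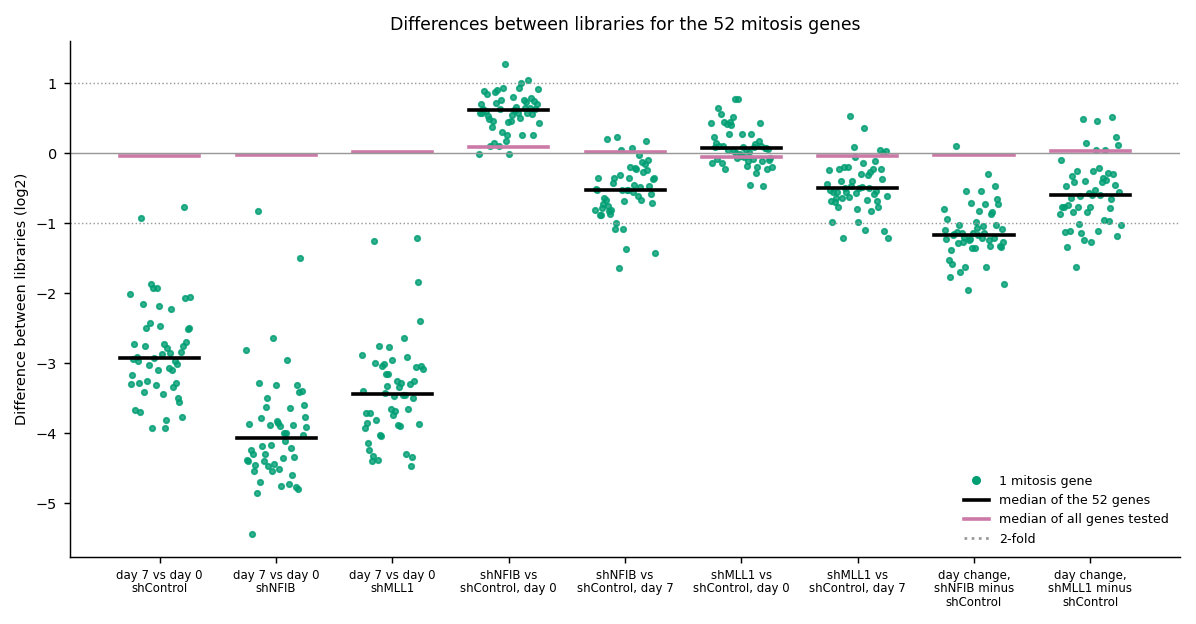
Log2 difference between libraries for each of the 52 mitosis genes (points, in the order of their roles) in 7 pairs of libraries and in the day change of each knockdown line minus that of shControl, with black bars for the median of the 52 genes, pink bars for the median of all genes tested and dotted lines at 2-fold. Medians between the days are -2.92 in shControl, -4.07 in shNFIB and -3.44 in shMLL1, and shNFIB lies above shControl at day 0 (0.62) and below it at day 7 (-0.52).

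Over both days together, the quasi-likelihood test of edgeR (Benjamini-Hochberg adjustment) called 0 of the 52 genes in shNFIB against shControl, with 0.178% of all genes tested called lower and 0.0762% higher. It also called 0 in shMLL1, with 0.0191% of all genes called lower and 0.0127% higher. At an unadjusted p under 0.05 there were 0 of the 52 genes in either line, against 5.08% of all genes lower and 7.35% higher in shNFIB and 5.65% and 3.51% in shMLL1. DESeq2 also called 0 of the 52 in either line, against 1.91% of all genes lower and 1.75% higher in shNFIB and 1.4% and 1.09% in shMLL1. The lowest adjusted p was 0.462 in shNFIB and 0.629 in shMLL1 in the quasi-likelihood test. A difference between lines that changes with the day adds to the error of this test, and most of the 52 genes were higher in shNFIB at day 0 and lower at day 7. Their log2 fold changes over both days ran from -0.73 (Birc5) to 0.74 (Cenpf) in shNFIB and from -0.76 (Mybl2) to 0.36 (Cenpk) in shMLL1. At day 0 the shNFIB library had the highest level of the 3 lines in 43 of the 52 genes and shMLL1 in 9, against 43% and 34.5% of all genes tested. At day 7 shControl had the highest level in 44, against 30.4% of all genes tested. The lowest level at day 7 was that of shNFIB in 27 and of shMLL1 in 22, against 37.4% and 34.8%.

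Other genes of the same processes were examined beside the 52. Of 72 further genes of mitosis, 68 fell in the quasi-likelihood test of edgeR (Benjamini-Hochberg adjustment), and the median log2 fold change was -2.92. Each count in this paragraph can be set against the 17.3% of all genes tested that fell. The lowest were Depdc1b (-4.13), which links adhesion to entry into mitosis, Ube2c (-3.89), the ubiquitin-conjugating enzyme of the anaphase-promoting complex, and the kinase Melk (-3.88). The highest were Zwint (0.09), Cenpt (-0.15) and Zw10 (-0.54), kinetochore genes that, with Cenpc1 (-0.58), were those not called, with adjusted p-values in that test of 0.833, 0.644, 0.0708 and 0.0565. All 20 genes of DNA replication and nucleotide synthesis fell in the same test, with a median of -2.39, from the lowest, Mcm5 (-3.82) and Rrm2 (-3.22), to the highest, Rrm1 (-1.11) and Pcna (-1.29). The fall of the 52 genes, with a median of -3.52, is given beside these medians as a description, since the difference between lists was not tested. In shNFIB against shControl the further mitosis genes had a median log2 difference of 0.53 at day 0 and -0.58 at day 7, near those of the 52 genes (0.62 and -0.52). Their day change in shNFIB minus that in shControl had a median of -1.18, beside -1.16 for the 52 genes and -0.34 for the replication genes. For shMLL1 minus shControl this median was -0.68 for the further mitosis genes, -0.61 for the replication genes and -0.59 for the 52 genes. The replication genes had a median log2 difference of 0.28 in shNFIB against shControl at day 0 and -0.21 at day 7. In shMLL1 the further mitosis genes were at 0.14 and -0.54 and the replication genes at 0.10 and -0.32, beside 0.07 and -0.50 for the 52 genes.

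Complexes with which the products of the 52 genes work were examined too, and each count can be set against the 17.3% of all genes tested that fell and the 17.2% that rose. Of 14 core subunits and activators of the anaphase-promoting complex, the ligase that CDC20 activates, 3 fell in the quasi-likelihood test of edgeR (Benjamini-Hochberg adjustment). These were Cdc27 (-1.01), Anapc1 (-0.96) and Fzr1 (-0.88), the highest were Cdc26 (0.48) and Anapc13 (0.46), and the median log2 fold change was 0.06. Of 10 genes of cohesin and its loaders and release factors, the substrate of separase among them, Rad21 (-1.52), Smc1a (-1.04) and Smc3 (-0.99) fell and Mau2 (0.78) rose, with Nipbl (-0.37) the next highest and a median of -0.48. Of 11 genes of the MuvB and DREAM complexes, which bind promoters of mitosis genes, Rbl1 (-2.33), Lin9 (-2.00), Lin54 (-1.62) and Tfdp1 (-1.15) fell in the same test. The highest were Rbl2 (0.33) and Lin37 (0.20), and the median was -0.32. Of the D cyclins and CDK inhibitors, 6 of 7 had enough counts. Ccnd1 (-1.75) and Ccnd2 (-1.19) fell, and the highest were Cdkn1b (0.54, with an adjusted p of 0.0751 in the quasi-likelihood test) and Cdkn1a (-0.01).

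Markers of other cell types were read in the same libraries. The 8 adipocyte markers summed to 32.0 CPM in shControl, 56.2 in shNFIB and 15.6 in shMLL1 at day 0, and 194, 90.1 and 29.6 CPM at day 7. The most abundant over the 6 libraries together was Pparg, a nuclear receptor of fat cells, Adipoq had at most 3 counts in any library, and the sum was highest in shControl at day 7, where Cfd was at 69.8 CPM against 0.744 in shNFIB and 1.84 in shMLL1. Pparg did not follow Cfd, at 42.0 CPM in shControl at day 7 against 84.2 in shNFIB and 20.9 in shMLL1. The 6 osteoblast markers summed to 33.3 CPM in shControl, 31.8 in shNFIB and 32.4 in shMLL1 at day 0, and 122, 37.8 and 36.0 CPM at day 7, with Runx2 the most abundant and Ibsp at 0 in all 6 libraries. Of 5 macrophage markers, Adgre1 was at 0 and Ptprc and Itgam had at most 3 counts, Cd68 was the most abundant, and the sum was 2.16 CPM in shControl, 1.52 in shNFIB and 2.39 in shMLL1 at day 0, and 8.004, 4.36 and 8.20 CPM at day 7. The 4 endothelial markers summed to 17.9 CPM in shControl, 25.4 in shNFIB and 3.31 in shMLL1 at day 0, and 2.76, 4.94 and 3.61 CPM at day 7, most of it Tek, with Cdh5 and Kdr at 3 counts or fewer. Of 4 epithelial markers, Epcam was at 0 and Krt5 had at most 3 counts, Cdh1 was the most abundant, and the sum was 9.05 CPM in shControl, 6.11 in shNFIB and 8.12 in shMLL1 at day 0, and 1.15, 0.203 and 0.574 CPM at day 7. These adipocyte, osteoblast, macrophage, endothelial and epithelial sums moved with the day in at least 1 line, as did the mesenchymal sum given above. Their part in the fall of the mitosis genes was not tested.

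Promoters were read because the 52 genes moved together and many promoters of this kind are known to hold a cell cycle genes homology region (CHR), to which MuvB complexes bind through LIN54, and CCAAT boxes, to which NF-Y binds. RefSeq windows on GRCm38.p6 from 250 bases before to 50 bases after the annotated start were found for 43 of the 52 genes, and the first window listed was used for genes with several. Missing were Aurkb, Ccna2, Cdc25c, Foxm1, Incenp, Kif20a, Smc4, Spc24 and Tpx2. The CHR was searched as TTTGAA or TTCGAA and the CCAAT box as CCAAT, each on both strands, so that TTTGAA on the other strand reads TTCAAA and CCAAT reads ATTGG. CHR letters were in 33 of the 43 windows (76.7%), against 19.4% of the windows of all 27025 genes in the table and 14.0% of those of the genes tested here. CCAAT was in 31 (72.1%), against 37.9% and 39.1%, and both were in 28 (65.1%), against 7.7% and 6.03%. From the start onward, within the 50 bases after it, CHR letters lay in 20 of the 43 windows (46.5%), against 2.4% of all genes. Neither motif was in Birc5, Mad2l1, Mybl2, Ncaph, Nuf2, Nusap1 and Pttg1, which says only that these letters are not in this window. The median day change was -3.67 over the 33 genes with CHR letters and -3.35 over the 10 without, and their ranges overlapped (-4.40 to -1.0 and -3.83 to -2.44). Of 61 windows of the 72 further mitosis genes, 35 held CHR letters (57.4%) and 38 held CCAAT (62.3%).

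In Bub3, Cdc20, Cdk1, Espl1, Kif11, Kif22 and Top2a both kinds of letters lay within the 100 bases before the RefSeq start. GENCODE M21 starts exons earlier for 5 of these 7 genes, so the stretches were cut where the first exon begins, and in 4 genes both kinds of letters remained. These 4 stretches are shown because they hold CHR and CCAAT letters near each other outside any annotated exon, next to the genes of the mitotic kinase, the checkpoint target, a spindle motor and the topoisomerase. Each runs 5′ to 3′ on the strand of the gene on GRCm38.p6, from 100 bases before the RefSeq start up to that start or to the first exon. Capitals mark CHR letters (TTTGAA or TTCAAA) and CCAAT letters (CCAAT or ATTGG). The coordinates are chr10:69352939-69353012, minus strand, for Cdk1 and chr4:118437353-118437443, minus strand, for Cdc20. They are chr19:37376282-37376381, plus strand, for Kif11 and chr11:99024190-99024289, minus strand, for Top2a.
Cdk1: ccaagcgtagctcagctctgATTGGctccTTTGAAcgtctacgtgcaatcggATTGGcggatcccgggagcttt
Cdc20: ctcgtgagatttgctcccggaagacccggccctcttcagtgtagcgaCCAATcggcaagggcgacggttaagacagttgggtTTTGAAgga
Kif11: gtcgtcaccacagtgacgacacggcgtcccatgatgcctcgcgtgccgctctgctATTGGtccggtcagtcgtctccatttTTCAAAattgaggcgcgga
Top2a: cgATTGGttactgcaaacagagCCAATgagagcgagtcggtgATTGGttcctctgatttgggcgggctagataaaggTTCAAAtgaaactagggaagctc
In Cdk1 the CHR letters shown begin 71 bases before the RefSeq start and the CCAAT letters 80 and 48 bases before it. The CHR letters begin 18 bases before the start in Cdc20, 19 in Kif11 and 23 in Top2a, each with CCAAT letters farther upstream. The parts cut off at the first exon held further matches. These were CHR letters 15 bases before the start in Cdk1 and CCAAT letters 8 bases before it in Cdc20. In Bub3, the gene with the smallest day change, CHR letters begin 43 bases before the RefSeq start, between CCAAT letters at 74 and 32 bases, and all 100 of these bases lie in an exon of GENCODE M21. Over the lines the log2 fold changes were -2.57 (Cdk1), -3.97 (Cdc20), -4.19 (Kif11), -3.22 (Top2a) and -1.0 (Bub3). A match is a description of the letters and was not tested for binding.

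**Figure D3:**
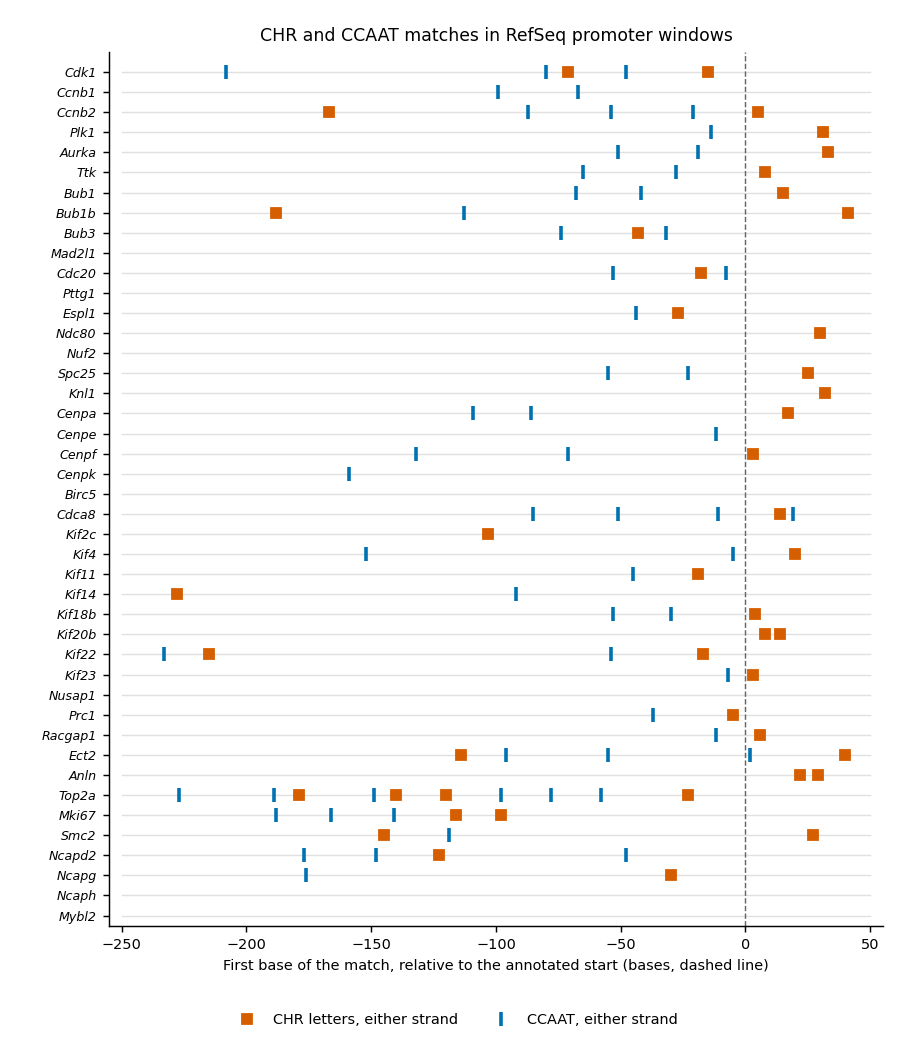
First base of each match to the CHR letters (orange squares) and to CCAAT (blue bars), on either strand, in the RefSeq windows of 43 mitosis genes, in bases relative to the annotated start (dashed line). CHR letters lie after the start in 20 of the 43 genes, and CCAAT letters lie within the 100 bases before it in 26.

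Exons of 15 of the 52 genes overlap those of another gene in GENCODE M21, 12 on the other strand and 3 on the same strand. On the other strand are Exosc9 at Ccna2, Gm3550 at Cdc25c, Gm44985 at Plk1, Elovl1 at Cdc20, Ppwd1 at Cenpk, 9930104L06Rik at Cdca8, Pdzd11 at Kif4, Cdc23 at Kif20a, Gm31749 at Kif22, Oip5 at Nusap1, Rccd1 at Prc1 and Lcorl at Ncapg. On the same strand are Gm23451 at Top2a, Scarna10 and Gm28967 at Ncapd2 and Tex52 and Gm44596 at Foxm1. The strand setting of the counting was not given in the sources used here, so the counts of these genes are uncertain. Their median log2 fold change between the days was -3.39 (range -4.40 to -2.43), beside -3.62 (-4.28 to -1.0) for the 37 genes without an overlap. Exons of the hairpin target Kmt2a overlap those of AC061963.1 on the other strand, so its counts are uncertain for the same reason.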

How the data were processed

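RNA was measured in 6 libraries, 1 for each line and day. The authors deposited raw read counts per Ensembl gene. Per the labels and the study's methods, they prepared TruSeq libraries, used Trimmomatic 0.39 for trimming and HISAT2 2.2.1 for alignment to GRCm38 (mm10), filtered on mapping quality with SAMtools 1.12, removed PCR duplicates and counted with htseq-count 0.11.1. The annotation release was not given in the sources used here. Every row of the table named a gene.

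Counts were scaled by TMM (factors 0.908 to 1.13). The model with line and day was fitted by quasi-likelihood in edgeR 4.0.16 under R 4.3.3, following the study's use of edgeR and TMM, to 15741 genes kept by filterByExpr, with Benjamini-Hochberg adjustment over all of them and calls at an adjusted p under 0.05. The estimated biological coefficient of variation was 0.277. The line pairs the days, because each line gave both. With the mean of its day taken off each library, the remainders of the 2 days correlated across genes at 0.43 in shControl, 0.43 in shNFIB and 0.27 in shMLL1. Pairs of libraries have no test: log2 ratios used a prior count of 0.125, and a gene past 2-fold, the fold the study used, was counted. Intervals of the difference in day change use the normal approximation to 4 counts. DESeq2 1.42.0 was an alternative, beside other scalings, filters, folds, prior counts, no replicate block and lines or libraries left out. The steps were tested on simulated data. Gene positions and exon lengths are those of GENCODE M21, and motifs and figures were made with Python 3.11.15 and matplotlib 3.10.9.

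Named in the text are all 52 genes, the hairpin targets, and the 3 lowest and 3 highest of the further mitosis genes by day change. Of the other gene lists the 2 lowest and 2 highest are named, with the genes called in the complexes and exceptions numbering 5 or fewer. Of the marker lists the most abundant gene, the genes with at most 3 counts in every library and Cfd are named. Genes whose exons overlap those of the genes examined are named as well. The members and lists were chosen with earlier results of these data known.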

Additional observations from a re-analysis of the deposited data

How the results depend on the processing

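The fall of the mitosis genes between the days was called for 52 genes with DESeq2's size factors in edgeR, with library size alone, with every gene that had a count, with DESeq2's test, with a fold over 2 added and with no replicate block. Leaving out each line in turn it was called for 51 to 52 genes, and Bub3 was the gene not called without shControl, at a log2 fold change of -1.08 from fewer libraries. The counts of 0 for shNFIB and shMLL1 over both days were 0 with the other scalings, with every gene that had a count, with DESeq2 and with only the 4 libraries compared. They were also 0 with each of those 4 left out in turn, which leaves 1 library on 1 side and so says little. Scaled by library size alone, the median of the 52 genes in shNFIB against shControl at day 0 was 0.52 in place of 0.62, and 1 gene in place of 3 was past 2-fold. That scaling moved the median of all genes tested from 0.09 to -0.02 in this pair, from 0.01 to -0.10 in shNFIB at day 7, from -0.04 to 0.07 in shMLL1 at day 7 and from 0.02 to 0.23 between the days in shMLL1, by its own construction. At 1.5-fold, 28 genes were higher in shNFIB at day 0 and 21 lower at day 7 (3 and 6 at 2-fold), against 15.6% and 20.4% of all genes tested. In shMLL1 3 were higher at day 0 and 18 lower at day 7 (0 and 4 at 2-fold), against 18% and 13.2%. DESeq2's size factors moved the median of all genes in shMLL1 against shControl at day 0 from -0.05 to 0.02 and that of the 52 genes from 0.07 to 0.14, and 15 of the 52 genes in place of 21 were below shControl there. With 1 library per condition, no spread between cultures of 1 condition could be estimated, and depth limits the day 7 values most, where Cdc25c had 52 counts in shMLL1.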
